A study of Rattus norvegicus with 6 samples.

Results

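The genes Bcam, Kcnip1, Gulp1, Npy1r, Wnt4 and C2cd4a had lower mRNA values in rat insulinoma cells after mutant proinsulin was induced and higher values again when an inhibitor of IRE1 was added. They are 6 of the 12603 genes that the arrays measured with a probeset of a single gene symbol. The genes were chosen on these arrays for lower values with doxycycline (Dox) and higher values once 4μ8c was added, so that all their differences between the groups are given as a description, without a test. The cells were 1 clone of INS-1, an insulin-secreting line from a rat insulinoma that stands in for pancreatic β-cells, and the clone carries a Dox-inducible gene for C96Y (Akita) mutant insulin 2 fused to GFP. The 3 groups received no Dox (untreated), Dox, or Dox together with 5 μM 4μ8c (Dox+4μ8c). All cells carried the transgene, which means that an effect of Dox itself and one of mutant proinsulin cannot be told apart, and 4μ8c without Dox was not analysed here. Treatment lasted 48 h, the labels give Dox at 4 μg/ml, and the methods of the study give a lower dose. Each of 2 independent experiments, taken from the replicate number in the labels, had 1 array per group, 6 arrays in all. Fewer cells that express a gene and less of its mRNA per cell cannot be told apart in such bulk samples.

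Mutant proinsulin that cannot fold activates the unfolded protein response of the endoplasmic reticulum (ER). One of its sensors, IRE1, is an endoribonuclease that splices the mRNA of the transcription factor XBP1, and it can also cleave other mRNAs at the ER membrane, a process called regulated IRE1-dependent decay. 4μ8c blocks the endoribonuclease, and thus both activities. The 6 genes belong to different families. Bcam encodes an adhesion molecule of the immunoglobulin family that binds laminin, Npy1r a receptor of neuropeptide Y that is coupled to inhibitory G proteins, and Wnt4 a secreted Wnt ligand, so that all 3 mRNAs are translated at the ER. Kcnip1 encodes a calcium-binding subunit of Kv4 potassium channels, Gulp1 a cytosolic adaptor for the engulfment of apoptotic cells, and C2cd4a a nuclear protein with a C2 domain that is present in β-cells.

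The values are in log2 units with the centre of each probeset removed experiment by experiment, so that they hold differences between arrays but no signal levels. The median over the 3 arrays of experiment 1 was 0 for every probeset. Levels of β-cell markers therefore could not be used to check the cell line, and no level of one gene can be set against that of another. The array of Dox replicate 2 was the most distant one. Its values had an SD of 0.176 over the 25476 probesets, compared with 0.0502 to 0.118 on the other 5 arrays. The gap between 5′ and 3′ probesets of 4 spiked-in transcripts differed from that of untreated cells of its experiment by a median of -0.65 (log2), and on the Dox+4μ8c array of experiment 2 by -0.26. In experiment 1 these differences were -0.16 with Dox and 0.10 with Dox+4μ8c. The gap was thus lower with Dox and higher again with Dox+4μ8c in both experiments, as the 6 genes were, and its part in their values was not tested. The values of the 6 genes are therefore given for each experiment, of which experiment 1 does not hold that array. The counts over lists rest on both experiments.

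Bcam had the most complete return. In experiment 1 its centred log2 value was 0.08 in untreated cells, -0.64 with Dox and 0 with Dox+4μ8c. In experiment 2 these values were -0.0035, -0.65 and 0.0035. The Dox array was thus far below both others in each experiment, and the array with Dox+4μ8c was on either side of untreated cells. The log2 difference between Dox and untreated cells was -0.68 ± 0.05 (SD, n = 2 experiments), a 1.61-fold lower value, and that between Dox+4μ8c and Dox was 0.65 ± 0.01. The share of the fall that was returned, which is the second difference divided by the size of the first, was 89.3% in experiment 1 and 101% in experiment 2. Among all genes Bcam ranked 16 from the lowest for Dox against untreated and 3 from the highest for Dox+4μ8c against Dox.

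Kcnip1 was measured by 2 probesets, which were averaged. In experiment 1 its values were 0.17 untreated, -0.48 with Dox and 0 with Dox+4μ8c, and in experiment 2 they were 0.08, -0.66 and -0.08. In both experiments Dox gave the lowest array and untreated cells the highest. Its log2 difference was -0.70 ± 0.06 (SD, n = 2 experiments) for Dox against untreated and 0.53 ± 0.06 for Dox+4μ8c against Dox, with 73.6% and 78.2% of the fall returned. The pair of probesets gave the same order of the 3 groups in each experiment but not the same size. One of them, of a type that can match several transcripts of a gene, was lower with Dox by a log2 difference of -0.61 in experiment 1 and -0.95 in experiment 2, and the other by -0.70 and -0.52. With the other one alone, the log2 difference of Kcnip1 for Dox against untreated was -0.61 and that for Dox+4μ8c against untreated -0.11, instead of -0.17.

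Gulp1 had the smallest fall of the 6 genes. Its values were 0.17 untreated, -0.40 with Dox and 0 with Dox+4μ8c in experiment 1, and 0.08, -0.53 and -0.08 in experiment 2. As for Kcnip1, the 2 experiments gave the same order of arrays. The log2 difference was -0.59 ± 0.02 (SD, n = 2 experiments) for Dox against untreated, a 1.51-fold lower value that lies just beyond a threshold of 1.5 fold, and in experiment 1 alone it was -0.58 and just short of it. With Dox+4μ8c the value was higher than with Dox by 0.43 ± 0.03, so that 70.4% and 73.5% of the fall was returned. Bcam, Kcnip1 and Gulp1, with differences of -0.04, -0.17 and -0.17 between Dox+4μ8c and untreated cells, were the 3 members for which more than 50% of the fall was returned.

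The receptor gene Npy1r had a larger fall and a smaller return. In experiment 1 its values were 0.65 untreated, -0.36 with Dox and 0 with Dox+4μ8c, and in experiment 2 they were 0.26, -0.66 and -0.26. The array with Dox+4μ8c was between the others in both experiments. The log2 difference was -0.96 ± 0.06 (SD, n = 2 experiments) for Dox against untreated, a 1.95-fold lower value, and 0.38 ± 0.03 for Dox+4μ8c against Dox. Of the fall, 35.8% and 43.8% was returned, and with Dox+4μ8c the value was still below untreated cells by a log2 difference of -0.58 ± 0.09.

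The ligand gene Wnt4 was the member whose return differed most between the experiments. Its values were 0.45 untreated, -0.44 with Dox and 0 with Dox+4μ8c in experiment 1, and 0.26, -0.52 and -0.26 in experiment 2. The order of the 3 arrays was the same in both. The log2 difference was -0.84 ± 0.08 (SD, n = 2 experiments) for Dox against untreated and 0.35 ± 0.13 for Dox+4μ8c against Dox, the latter from 0.44 in experiment 1 and 0.26 in experiment 2. The share of the fall returned was 49.9% and 33.6%.

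C2cd4a had the largest fall and the smallest return. In experiment 1 its values were 0.70 untreated, -0.29 with Dox and 0 with Dox+4μ8c, and in experiment 2 they were 0.37, -0.63 and -0.36. Both treated groups were well below untreated cells in each experiment. The log2 difference for Dox against untreated was -0.99 ± 0.01 (SD, n = 2 experiments), a 1.99-fold lower value and the fourth lowest of all genes. That for Dox+4μ8c against Dox was 0.28 ± 0.02, with 29.2% and 26.8% of the fall returned. It was the only one of the 6 genes that remained at least 1.5 fold below untreated cells with Dox+4μ8c on the mean of both experiments, at a log2 difference of -0.72 ± 0.02.

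**Figure D1:**
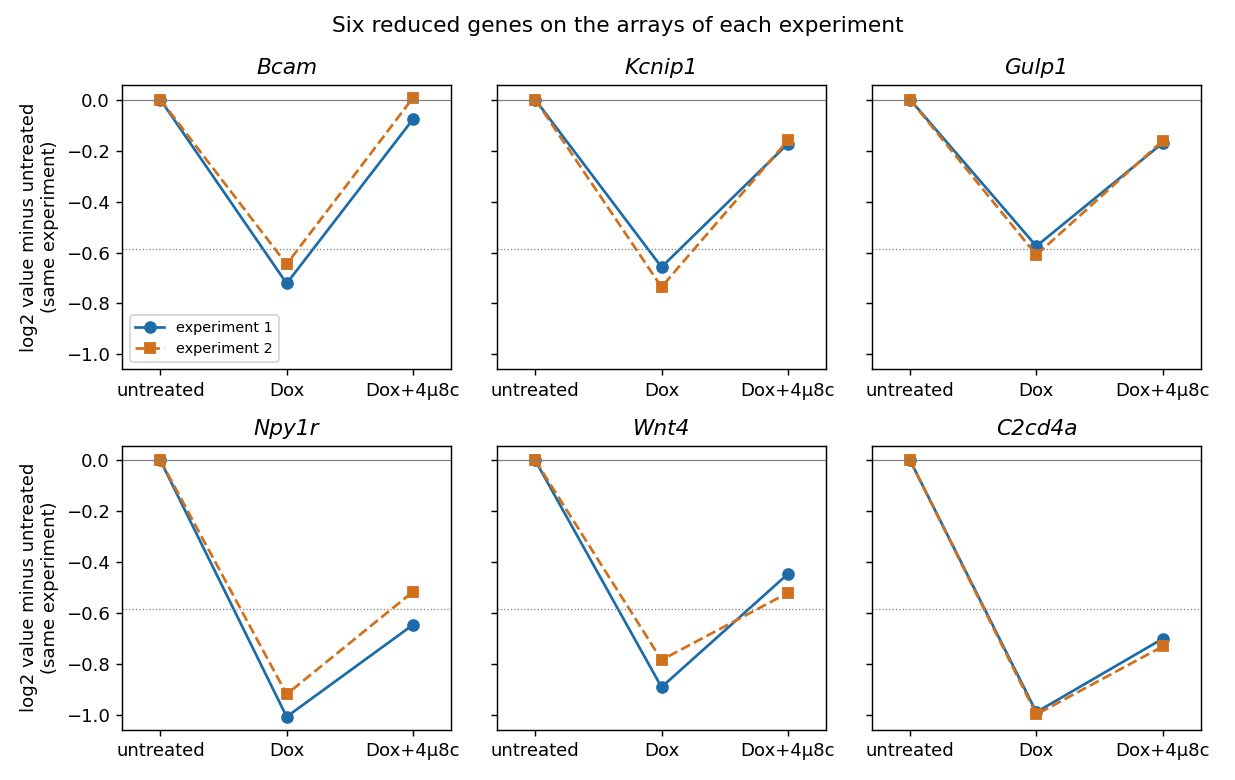
Log2 value of each of the 6 genes minus that of untreated cells of the same experiment (y axis) for untreated cells, Dox and Dox+4μ8c (x axis), with 1 line for each of the 2 experiments and 1 array per point. The dotted line marks 1.5 fold below untreated. Bcam returns to -0.08 and 0.01, and C2cd4a to -0.70 and -0.73.

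Over the 6 genes, the median log2 difference for Dox against untreated was -0.77, with -0.81 in experiment 1 and -0.76 in experiment 2, compared with 0.01 over all genes. For Dox+4μ8c against Dox the median was 0.40, with 0.42 and 0.43 in experiments 1 and 2, compared with -0.01 over all genes. All 6 were lower with Dox in both experiments, as were 24.8% of all genes, and all 6 were higher with Dox+4μ8c than with Dox in both, as were 19% of all genes. Dox gave the lowest and untreated cells the highest of the 3 arrays in both experiments for 5 of the 6, an order seen in 4.85% of all genes, and Bcam was the exception. Each of these counts uses values by which the genes were chosen. Ties also lower the shares over all genes. In experiment 1, 5024 of 12603 genes were below 0 for Dox against untreated and 4401 above, and the rest were at exactly 0. For Dox+4μ8c against Dox, 4556 were below and 4538 above. Tied genes cannot count as lower or higher in both experiments. Between the experiments, the SD of Dox against untreated was 0.01 to 0.08 for the 6 genes (median 0.05). The median SD was 0.06 over all genes, most of which differed little between the groups, and 0.18 over the 16 other reduced genes described next. The SD of the members comes from the values by which they were chosen, and is a description only. The order of the members by share of the fall returned was the same in both experiments, apart from Npy1r and Wnt4, which changed places.

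On the mean of both experiments, 22 genes (0.175% of those measured) were lower with Dox by 1.5 fold or more, among them all 6 members. The other 16 included the hormone genes Gcg and Stc1 and the secretory granule gene Sytl4. They had a median log2 difference of -0.78 for Dox against untreated, close to the -0.77 of the members, and of 0.18 for Dox+4μ8c against Dox. The median share of the fall returned was 57.1% for the members and 18.6% for the other 16, a difference that the choice of members for their return builds in. With Dox+4μ8c, 9 of the 16 and 1 of the 6 were still at least 1.5 fold below untreated cells, as were 0.159% of all genes. Slc18a1, a vesicular monoamine transporter, Ak4, an adenylate kinase, Mgarp and Fam151a were on the mean further below untreated cells with Dox+4μ8c than with Dox alone. Some genes that were not chosen had as large a return as the members. Maob, monoamine oxidase B, had 85.1% of its fall returned, with log2 differences of -0.61 for Dox against untreated and 0.52 for Dox+4μ8c against Dox. Gcg, which encodes glucagon, had the largest difference for Dox+4μ8c against Dox of all genes, 0.86, but only 38.6% of its fall of -2.22 was returned. Plppr5 exceeded its untreated value on the mean, but its difference for Dox against untreated was -0.17 in experiment 1 and -1.01 in experiment 2.

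**Figure D2:**
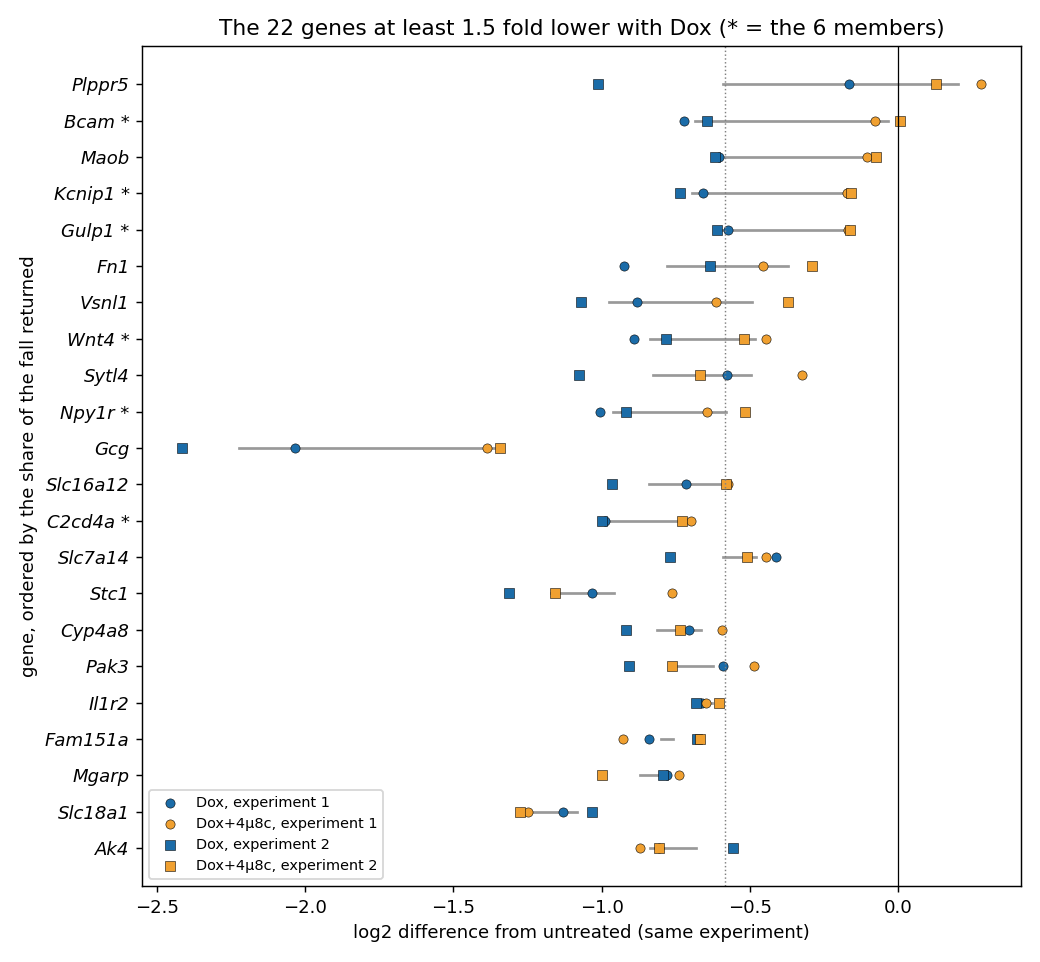
Log2 difference from untreated cells of the same experiment (x axis) with Dox (blue) and with Dox+4μ8c (orange) for the 22 genes at least 1.5 fold lower with Dox (y axis, ordered by the share of the fall returned, the 6 members starred), with circles for experiment 1, squares for experiment 2, a grey bar between the means and a dotted line at 1.5 fold. The members run from Bcam, with 94.9% of the fall returned, down to C2cd4a, and Ak4, Slc18a1, Mgarp and Fam151a have negative shares.

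The thresholds around the members were narrow. Gulp1, at 1.51 fold, was the member closest to the 1.5 fold threshold, and just outside it was Car8, a carbonic anhydrase-related gene, with a log2 difference of -0.58 for Dox against untreated and 0.38 for Dox+4μ8c against Dox. For the return, C2cd4a was lowest at 0.28, and Slc16a12, a monocarboxylate transporter gene that also fell beyond 1.5 fold, was next at 0.26. At least 1.5 fold lower with Dox and at least 1.2 fold higher with Dox+4μ8c were 12 genes (0.0952%). They were the 6 members, Fn1, Gcg, Maob, Plppr5, Sytl4 and Vsnl1. The count was 43 when untreated replicate 1 was left out and 58 when Dox replicate 1 was, where the difference for Dox against untreated comes from experiment 2 alone.

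**Figure D3:**
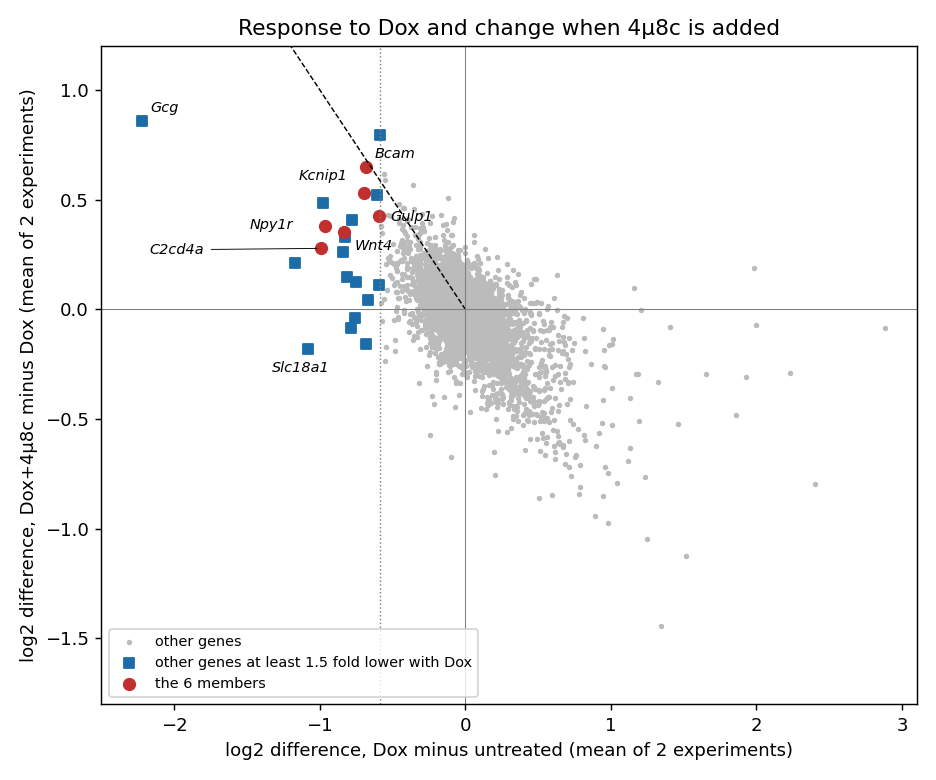
Log2 difference of Dox against untreated (x axis) and of Dox+4μ8c against Dox (y axis), each the mean of 2 experiments, for 12603 genes (grey), the 6 members (red) and the other 16 genes at least 1.5 fold lower with Dox (blue squares). The Dox arrays enter both axes with opposite sign, which by itself tilts the cloud; on the dashed line the whole fall is returned, the dotted line is 1.5 fold, and Bcam lies closest to the dashed line of the 6.

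The profile of the members was also compared with that of every other gene, by the root mean square distance over 4 differences (Dox minus untreated and Dox+4μ8c minus Dox, in each experiment) from the mean of the members. The mean profile was -0.81 and -0.78 for Dox and 0.44 and 0.43 for the return in experiments 1 and 2. The 5 nearest genes outside the 6 were Fn1, which encodes fibronectin, at a distance of 0.106, Maob at 0.144, Car8 at 0.162, the protein kinase gene Pim2 at 0.170 and Slc16a12 at 0.183. The members themselves were at 0.0955 (Wnt4) to 0.180 (C2cd4a), a range that holds 4 of these 5 genes. Fn1 had log2 differences of -0.92 and -0.63 for Dox against untreated and of 0.47 and 0.34 for Dox+4μ8c against Dox. Pim2, which with Car8 was just short of 1.5 fold, had -0.57 and -0.58 for the first and 0.37 and 0.32 for the second.

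Relatives and partners of the members were tested with limma across all genes, with the experiment as a term (Benjamini-Hochberg adjusted p under 0.05). Of the 10 other Wnt ligands measured, 0 passed in any of the 3 comparisons. Among all genes 6.43%, 1.79% and 2.3% were called, so that 0 of 10 is near the background and is no result about the family. Wnt1, Wnt2b, Wnt9a and Wnt11 had differences of exactly 0 in experiment 1 in all 3 comparisons. Over all 10 ligands, the log2 differences with Dox against untreated were -0.13 to 0.17 (smallest limma adjusted p = 0.18). With Dox+4μ8c against Dox they were -0.12 to 0.11 (smallest adjusted p = 0.50). The peptides of the NPY family (Npy, Pyy and Ppy) and the Y4 receptor gene Npy4r likewise had differences of -0.19 to 0.13 with Dox (smallest adjusted p = 0.13) and -0.09 to 0.09 for Dox+4μ8c against Dox. Kcnip2, Kcnip3, Kcnip4 and the Kv4 channel genes Kcnd1, Kcnd2 and Kcnd3 had differences of -0.18 to 0.11 with Dox (smallest adjusted p = 0.15) and -0.13 to 0.23 with Dox+4μ8c against Dox (smallest adjusted p = 0.27). These ranges are of estimates over both experiments together. The values of Wnt4, Npy1r and Kcnip1 in each experiment lay outside them in both comparisons, which the choice of members for a fall and a return builds in. Whether a member differs from its relatives was not tested.

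The paralog of C2cd4a, C2cd4b, also fell with Dox. It lies beside C2cd4a in the order of protein-coding genes of the GRCr8 assembly, with Vps13c on the other side of C2cd4a. C2cd4b was lower with Dox by -0.53 in experiment 1 and -0.44 in experiment 2, a log2 difference of -0.48 (SE 0.06, limma adjusted p = 0.0066). With Dox+4μ8c against Dox it was at 0.20 and 0.04 in experiments 1 and 2, a mean of 0.12 that did not pass (adjusted p = 0.51). It remained below untreated cells with Dox+4μ8c at -0.36 (adjusted p = 0.034). Vps13c did not pass in any comparison, with log2 differences of -0.03 for Dox against untreated and 0.12 for Dox+4μ8c against Dox. The fall of C2cd4b with Dox did not pass without untreated replicate 1 (adjusted p = 0.056, range over 10 alternatives 0.0034 to 0.056), and its difference between Dox+4μ8c and untreated did not pass in 5 of 10 alternatives (range 0.0057 to 0.36). The 2 genes are related in sequence, and whether their probesets share targets was not tested.

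**Figure D4:**
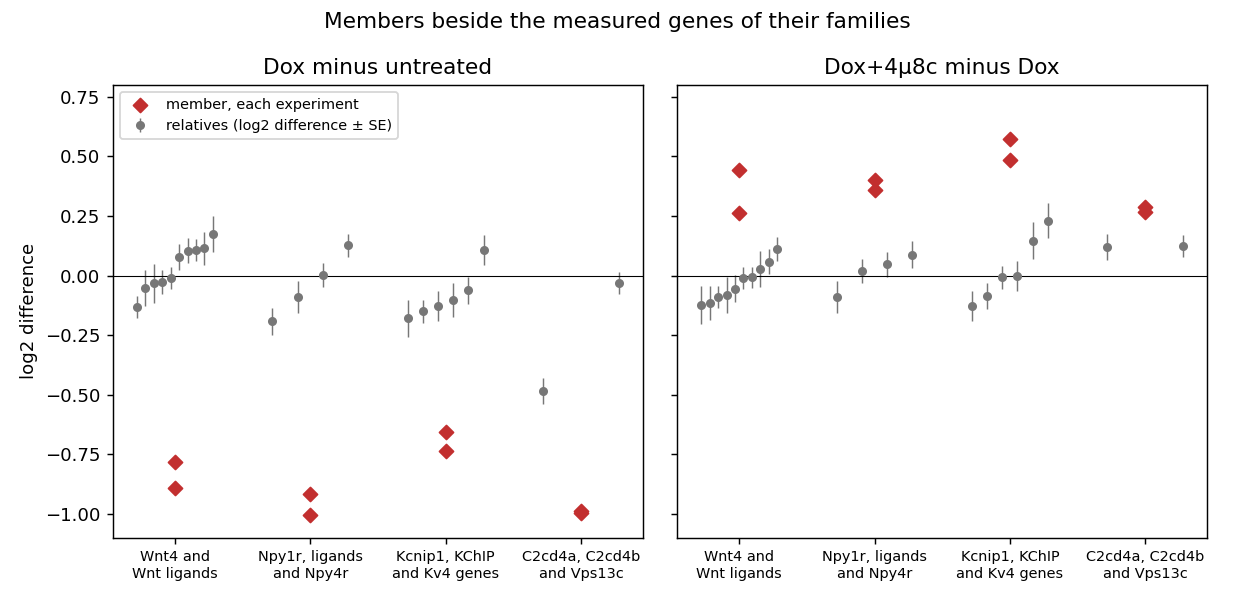
Log2 difference (y axis) of Dox minus untreated (left) and Dox+4μ8c minus Dox (right) for Wnt4, Npy1r, Kcnip1 and C2cd4a in each of 2 experiments (red diamonds) and for the measured genes of their families (grey, limma estimate ± SE; x axis, in order of size). With Dox the relatives lie between -0.19 and 0.17 apart from C2cd4b at -0.48, and the members, which were chosen for a fall, between -1.01 and -0.66.

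Wider lists of genes around the members showed few calls. The 6 lists (Wnt signalling, neuropeptide Y signalling and its coupling to cAMP, KChIP and neuronal calcium sensors, laminins and immunoglobulin-family adhesion molecules, engulfment, and the C2cd4 family) held 137 measured genes other than the members. With Dox, 3 of these rose and 5 fell, together 5.84%, compared with 6.43% of all genes. The genes that fell were Vsnl1, a neuronal calcium sensor, at -0.98 (SE 0.10, limma adjusted p = 0.0045), Alcam, an adhesion molecule of the same immunoglobulin family as Bcam, at -0.54 (SE 0.05, adjusted p = 0.0032), C2cd4b, the G protein gene Gnao1 at -0.29 and the calcium sensor gene Hpca at -0.27. Those that rose were Icam1, an adhesion molecule of inflammation, at 0.45, Pros1, which encodes a bridging protein of engulfment, at 0.44, and Wls, which carries Wnt ligands to the cell surface, at 0.29. With Dox+4μ8c against Dox, 1 rose and 2 fell (2.19%, compared with 1.79% of all genes): Lamb1, a laminin chain, was at 0.34, Icam1 at -0.42 and Pvr, an adhesion molecule of the nectin family, at -0.40. With Dox+4μ8c against untreated, 3 rose (Wls at 0.49, Lamb1 at 0.40 and Pros1 at 0.36) and 4 fell (the adenylyl cyclase gene Adcy8 at -0.65, Alcam at -0.45, the Wnt receptor gene Fzd1 at -0.41 and C2cd4b), 5.11% of the list and 2.3% of all genes.

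Alcam was at 0.08 and 0.09 for Dox+4μ8c against Dox in experiments 1 and 2 (limma adjusted p = 0.57). Bcam was at 0.64 and 0.65, which its choice for a return builds in, and the pair was not tested against each other. In the same comparison Vsnl1 was at 0.27 and 0.70 (mean 0.48, limma adjusted p = 0.086). Counts in these lists depended on single arrays, and so did those over all genes. Over all genes the counts shifted in the same direction in each of the fits that follow, as given under the processing. The shifts, among them the counts of 0, are thus no result about these lists. In place of the 8 genes called with Dox, there were 3 or 4 when untreated replicate 1 or 2 was left out, 27 when Dox replicate 1 was, and 5 when Dox replicate 2 or any Dox+4μ8c array was. In place of the 3 called with Dox+4μ8c against Dox, limma called 0 when Dox+4μ8c replicate 1 or 2 was left out (23 and 9 at an unadjusted p under 0.05), 1 when an untreated array or Dox replicate 2 was, and 14 when Dox replicate 1 was. In place of the 7 called with Dox+4μ8c against untreated, limma called 0 when any one of the untreated or Dox+4μ8c arrays was left out (17 to 33 at an unadjusted p under 0.05) and 14 when a Dox array was. Without the experiment term limma gave counts of 4, 0 and 0 (20 and 26 at an unadjusted p under 0.05 for the last pair), where 440, 143 and 0 of all genes were called. In that fit the falls of Vsnl1 and Alcam with Dox had limma adjusted p of 0.078 and 0.077, the highest of their 10 alternatives. Every call named from these lists failed in at least 1 alternative, from Vsnl1, Alcam, C2cd4b and Pros1 with Dox in 1 to Lamb1 with Dox+4μ8c against Dox in 7 of 10.

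Marker genes of β-cells were also compared. Of 15 such genes 11 were measured. With Dox 5 fell and 0 rose (8 and 0 at an unadjusted p under 0.05), compared with 2.01% lower and 4.42% higher among all genes. Without the experiment term 3 were called, as were 440 of all 12603 genes. The 5 genes are named next. They were Mafa, a transcription factor of mature β-cells, at -0.56 (SE 0.07, limma adjusted p = 0.0090), the transcription factor gene Nkx2-2 at -0.52, the ATP-sensitive potassium channel genes Kcnj11 and Abcc8 at -0.51 and -0.47, and Iapp, islet amyloid polypeptide, at -0.25. Against untreated cells, Nkx2-2 at -0.30 and Kcnj11 at -0.27 fell with Dox+4μ8c and 0 rose, compared with 1.13% lower among all genes. Both calls were weak, since Nkx2-2 failed in 6 and Kcnj11 in 8 of 10 alternatives. Among these was the fit without the experiment term, where limma called 0 of all genes in this comparison. Mafa was the marker that rose with Dox+4μ8c against Dox, at 0.62 (SE 0.07, adjusted p = 0.019), as 0.175% of all genes did. At an unadjusted p under 0.05, 7 of the 11 were higher and 0 lower in this comparison, where 1415 of all 12603 genes passed in either direction. The differences of the 11 markers ran from 0.013 to 0.62, with a median of 0.20. Mafa did not pass when Dox+4μ8c replicate 1 or 2 was left out, with log2 differences of 0.58 and 0.66. Calls over all genes also shifted in those fits, as given under the processing, so that this is no result about Mafa. Over the 11 genes the median difference from untreated cells was -0.21 and -0.28 with Dox in experiments 1 and 2, and -0.05 and -0.02 with Dox+4μ8c. Ins1 and Ins2 did not pass, with -0.03 and -0.13 for Dox against untreated, and the probesets of Ins2 may also read the transgene. The 7 measured genes of other islet cells had medians of 0 and 0.06 with Dox, and Gcg was the one called, in all 3 comparisons, though not without the experiment term. Of the 4 measured markers of cells outside the islet (12 listed), limma called 0 in any comparison, with or without the experiment term. At an unadjusted p under 0.05 the count was also 0. Among all genes 6.43%, 1.79% and 2.3% were called in the 3 comparisons, so that 0 of 4 is near the background and is no result about these markers. Summed marker levels cannot be given for centred values, and the part of these markers in the values of the 6 genes was not tested.

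A further pair of lists bears on the activities of IRE1. Of 21 measured targets of the transcription factor XBP1, 19 rose with Dox and 0 fell, compared with 4.42% higher among all genes, and 15 fell and 0 rose with Dox+4μ8c against Dox, compared with 1.61% lower. With Dox+4μ8c against untreated cells 7 were still higher and 0 lower, compared with 1.17% higher among all genes, with Sdf2l1 at 1.38, Creld2 at 0.94 and Dnajb11 at 0.65. Without the experiment term limma called 0 of all genes in this comparison, so that 0 of the 7 is no result about these targets. Among those that rose and fell were Fkbp11, a prolyl isomerase of the ER, at 1.52 and -1.13, and the transcription factor gene Bhlha15 at 1.35 and -1.44. Without the experiment term limma called 12 of the list for Dox against untreated and 9 for Dox+4μ8c against Dox, compared with 440 and 143 of all 12603 genes. Calls over all genes for Dox+4μ8c against Dox also depended on single arrays, as given under the processing. Of 13 measured mRNAs reported as substrates of IRE1-dependent decay, among them Bloc1s1, Scara3 and Sparc and the 2 insulin genes, limma called 0 in any of the 3 comparisons, with or without the experiment term. At an unadjusted p under 0.05, 1 was lower with Dox and 0 were higher with Dox+4μ8c than with Dox. Their log2 differences were -0.13 to 0.11 for Dox against untreated and -0.08 to 0.09 for Dox+4μ8c against Dox. Among all genes 6.43%, 1.79% and 2.3% were called in the 3 comparisons, so that a count of 0 among 13 genes is near the background and is no result about these mRNAs.

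Promoter windows of the 6 genes were read from RefSeq (GRCr8), from 250 bases before to 50 bases after the annotated start of transcription. All 6 matched, with 2 windows for Kcnip1. Motifs of the unfolded protein response were searched on both strands: the UPRE TGACGTGG, which XBP1 binds, the ERSE (CCAAT, any 9 bases, CCACG), the ERSE-II (ATTGG, any 1 base, CCACG), and CCACG by itself, which is part of the ERSE and ERSE-II and whose other strand, CGTGG, is part of the UPRE. The UPRE was found in 1 of the 7 windows, that of C2cd4a, and in 0.595% of all 33469 windows. In the list of XBP1 targets it was found in 2 of the 17 genes with a window, and in 0 of 12 of the other reduced genes. No member held an ERSE or ERSE-II, which 0.0657% and 0.0508% of all windows did. The window of C2cd4a (chr8:77350872-77351171, minus strand) is shown whole, 5′ to 3′, because it holds the UPRE, 201 bases before the start, and 4 matches of CCACG on one or the other strand. One of these matches overlaps the UPRE, and a pair overlap each other 89 and 86 bases before the start. Capitals mark the matches.

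C2cd4a promoter: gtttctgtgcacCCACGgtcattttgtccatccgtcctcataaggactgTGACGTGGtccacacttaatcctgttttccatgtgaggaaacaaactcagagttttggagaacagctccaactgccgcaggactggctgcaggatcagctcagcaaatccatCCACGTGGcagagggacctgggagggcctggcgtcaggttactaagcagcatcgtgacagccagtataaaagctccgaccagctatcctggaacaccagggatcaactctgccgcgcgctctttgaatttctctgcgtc

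The short motif CCACG was found in 5 of the 7 windows, from 5 of the 6 genes, and in 31.6% of all windows. It was also in 14 of 17 XBP1 targets and 2 of 12 other reduced genes. To compare its surroundings, 15 bases on each side of 1 match in each of the other 4 genes are given on the strand of the gene, with the match in capitals. It lies 90 bases before the start in Bcam (chr1:88557429-88557463, minus strand), 190 in Gulp1 (chr9:54114698-54114732, plus), 148 in Npy1r (chr16:27813516-27813550, minus) and 5 in Wnt4 (chr5:154797430-154797464, plus).
Bcam: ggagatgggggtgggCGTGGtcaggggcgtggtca
Gulp1: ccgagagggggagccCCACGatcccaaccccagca
Npy1r: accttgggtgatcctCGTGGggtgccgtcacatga
Wnt4: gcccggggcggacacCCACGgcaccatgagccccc
Bcam holds a further match 78 bases before the start. The GC content of the members' windows ran from 49.0% (Npy1r) to 83.3% (Wnt4), with a median of 51.7% over all windows. All windows of the members except that of Npy1r were above this median. The share of CCACG over all windows was not matched for GC content. In Wnt4 the letters ATG follow the match within the 15 bases shown, so that its window may reach into coding sequence. The starts are those of the annotation, and where transcription begins in these cells was not tested. A match is a description of these letters and not evidence of binding.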

How the data were processed

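The arrays were Affymetrix arrays, hybridized with biotin-labelled RNA from total RNA. The log2 values were deposited by the authors after RMA, which the submitters' processing notes name without a version, and had been centred probeset by probeset (median over an experiment's arrays 0 in 100% of probesets in experiment 1 and 0.836% in experiment 2, where a further array not analysed here may have entered the centring). The rule by which probesets were kept is not given in the sources used here. Of 25476 probesets, 52 were controls, 7068 had no symbol, 378 had several and 17978 had 1. The last were averaged to 12603 genes, without a filter. Differences were taken within an experiment and averaged.

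Tests of the lists used lmFit and eBayes of limma 3.58.1 under R 4.3.3 (3 groups with the experiment as a term, two-sided, 2 residual and 4.247 prior degrees of freedom), tested on simulated data first. Python 3.11.15, pandas 2.3.3, numpy 2.4.6 and matplotlib 3.10.9 served for the rest. No source states that a number marks a shared culture. The experiment term was used because values were centred by experiment. Deviations from group means, correlated over genes, gave r of 0.031 to 0.1, which the centring makes uninformative. The members, the lists and the model were chosen with earlier results of these data known. Named genes are the members, the other genes at least 1.5 fold lower with Dox, the 5 nearest profiles, up to 3 called genes per list and comparison with the smallest p, and measured relatives; others are named because a count was small, after their values were seen. The number of arrays limits the precision, and the study's methods describe the replicates as independent experiments. Alternatives were no experiment term, arrays centred on their medians, other handling of probesets, averaged linear fold changes and each array left out.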

Additional observations from a re-analysis of the deposited data

How the results depend on the processing

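No value of the 6 genes changed sign under any alternative, except that of Bcam for Dox+4μ8c against untreated, which was close to 0 and ranged from -0.08 to 0.01 with 1 array left out. Of 180 member values recomputed, 4 moved by more than the SD between experiments (C2cd4a with Dox and Bcam on return, to 0.66, with arrays centred on their medians, and Kcnip1 in 2 comparisons without its several-transcript probeset). This count was largely set in advance and is no measure of robustness. With 2 experiments, leaving out 1 array cannot move a value by more than that SD. Other handling of probesets could change only Kcnip1. The median of the members for Dox+4μ8c against Dox was 0.42 with arrays centred on their medians, and 0.40 to 0.43 with 1 array left out. That for Dox against untreated was -0.81 to -0.76 and that for Dox+4μ8c against untreated -0.34 to -0.31 with 1 array left out. The number of genes with the fall and return of the members, 12, was 11 to 58 with 1 array left out.

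Without the replicate block (the experiment term), limma called 440 genes instead of 810 for Dox against untreated, 143 instead of 225 for Dox+4μ8c against Dox and 0 instead of 290 for Dox+4μ8c against untreated (2083 at an unadjusted p under 0.05). In the partner lists it called 4, 0 and 0 genes (20 and 26 at an unadjusted p under 0.05 for the last 2) instead of 8, 3 and 7. With 1 array left out, the calls over all genes were 239 to 1759, 0 to 905 and 11 to 712, and in the partner lists 3 to 27, 0 to 14 and 0 to 14. The extremes came without untreated replicate 1 (239) and Dox replicate 1 (1759, 905 and 712, the last also without Dox replicate 2), and when Dox+4μ8c replicate 1 or 2 was omitted (0 and 0 for Dox+4μ8c against Dox, with 1432 and 595 at an unadjusted p under 0.05, and 11 and 20 against untreated). Such a fit assumes that the lone array of a group varies like the other groups. The cause of these shifts was not tested. A filter on dim probesets was not run, because the centred values hold no signal level.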

Other observations

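The fall and return of the 6 genes had a counterpart in the other direction. At least 1.5 fold higher with Dox were 122 genes, of which 77 (63.1%) were at least 1.2 fold lower with Dox+4μ8c than with Dox. In the direction of the members the same thresholds gave 12 of 22 genes (54.5%). With 1.2 fold for both steps, 244 of 565 genes higher with Dox (43.2%) and 67 of 319 genes lower with Dox (21.0%) turned back. The pairs of shares use the same Dox arrays in both steps, and their difference was not tested.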
